A study of Mus musculus with 12 samples.

Results

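Region CA1 was compared with region CA3 of the adult mouse hippocampus in fresh-frozen sections that had been permeabilized with TE buffer. The comparison used the 4 CA1 and the 4 CA3 replicates of that condition, 8 of the 48 replicates in the count table, and 14544 of the 32546 genes in the table had at least 10 unique molecular identifiers (UMIs, counts of different molecules) summed over the 8 and were tested. All mice were ICR males aged 8 weeks, their tissue was frozen without fixation, and the sections, which the study's protocol fixes briefly with PFA on the slide, were immersed in TE at 70 °C for 1 h. In photo-isolation chemistry (PIC), RNA is reverse transcribed in the section from primers blocked by a light-sensitive cage, and a digital mirror device projects UV light onto a chosen region so that cDNA of that region alone can be amplified by CEL-seq2, a 3′ end counting method. Every cell in the irradiated area therefore contributed, neurons and glia alike. The study's other conditions were fresh-frozen sections treated with 0.1 N HCl for 5 min, PFA-fixed frozen sections and fixed paraffin sections, and the dentate gyrus (DG) was sampled in each.

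The 4 replicates of a region carried different barcodes and were pooled in 1 library, so that region and library cannot be told apart within the condition. No label ties a replicate number to an animal, and p-values measure the spread between these barcoded replicates. The series description names CA2 where the sample titles and the study name CA3, and the titles were followed. Because a region is a mixture of cells, fewer cells of a type and less RNA per cell cannot be told apart.

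CA1 and CA3 are successive stations of the hippocampal circuit. Pyramidal neurons of CA3 receive mossy fibres from the granule cells of the DG and excite one another through recurrent collaterals. Their Schaffer collaterals then excite the pyramidal neurons of CA1, which send the output to the subiculum and cortex. Both fields are made of glutamatergic pyramidal cells with shared lineage, yet they are known to differ in receptors, ion channels, guidance cues and transcription factors.

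The CA1 replicates held 370605 to 870761 UMIs (median 702126) and the CA3 replicates 511767 to 1111804 (median 805614), from 14395 to 17199 and from 15006 to 18527 detected genes. On log2 CPM (UMIs scaled to a common total, with 10 CPM added) the 6 pairs within CA1 correlated at 0.952 to 0.971, the 6 within CA3 at 0.960 to 0.979 and the 16 pairs across regions at 0.939 to 0.968 across genes, which are not independent replicates. No replicates held identical values. In either region replicates 1 and 4, and replicates 2 and 3, resembled each other more than the other pairs did, with a chi-square per gene of 1.73 to 2.12 against 2.57 to 3.63, and counts are also given after each such pair was summed. UMIs of 6 bases allow 4096 different tags. The mitochondrial rRNA mt-Rnr2 reached at least 90% of that number in 8 of 8 replicates, and its highest count, 4317, was above that number. Differences in its level were therefore not read.

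edgeR's quasi-likelihood test called 643 genes between CA1 and CA3 at a Benjamini-Hochberg adjusted p under 0.05, which is 4.42% of the genes tested. Of these, 290 (1.99%) were higher in CA1 and 353 (2.43%) higher in CA3, while the median log2 fold change of all genes, CA1 over CA3, was -0.01. The median fold of the calls was 2.08 toward CA1 and 2.18 toward CA3, and 30 and 68 genes respectively differed at least 4-fold. The 4 CA1 values and the 4 CA3 values did not overlap in CPM for 266 of the calls toward CA1 and 314 of those toward CA3, against 1388 genes (9.54%) among all tested. Protein-coding genes made up 250 and 323 of the calls. With the replicate number as a block 1227 genes were called, 574 toward CA1 and 653 toward CA3, and these held 289 of the 290 and all 353 of the unblocked calls. Summing replicates 1 and 4 and replicates 2 and 3, which leaves 2 samples a region, gave 100 and 133 calls. The exact two-sided permutation test of 1 gene, 4 replicates against 4, cannot go below p = 0.0286.

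**Figure D1:**
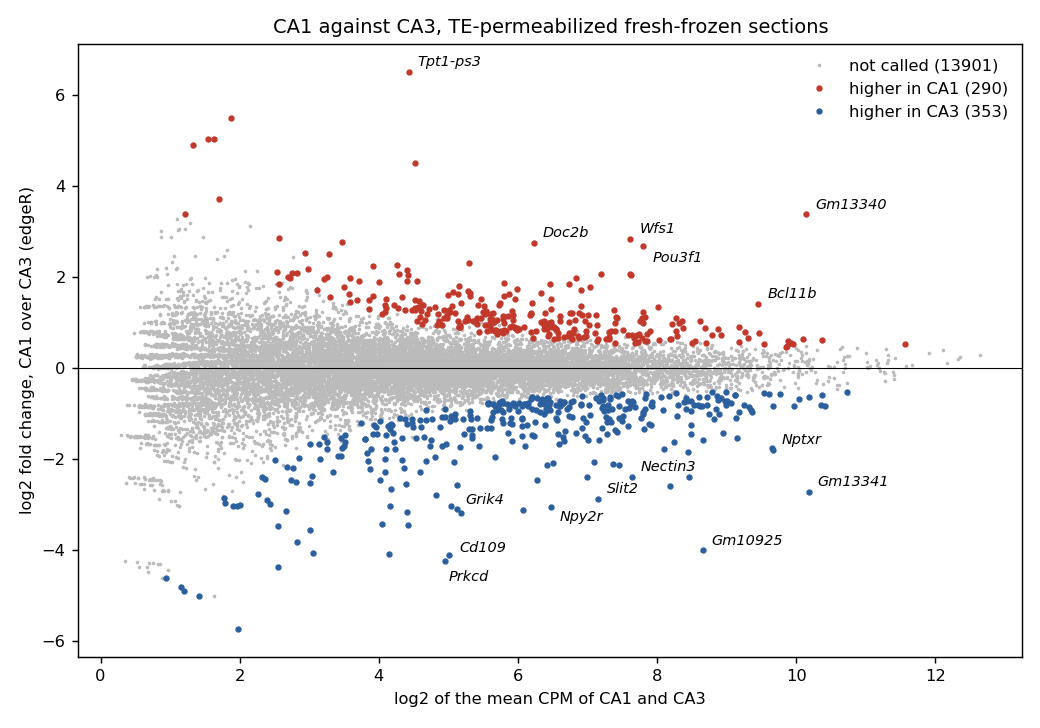
Log2 fold change, CA1 over CA3, against log2 mean CPM for the 14544 genes tested, 1 point per gene. The 290 genes called higher in CA1 and the 353 called higher in CA3 are coloured and the 13901 others are grey, and genes of low and of high expression are among the calls.

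Wfs1, which encodes a membrane protein of the endoplasmic reticulum and is a standard marker of dorsal CA1 pyramidal cells, separated the regions. Its level was 353, 387, 239 and 402 CPM in the CA1 replicates and 50.1, 54.0, 59.0 and 21.5 CPM in the CA3 replicates. The lowest CA1 value lay far above the highest CA3 value (log2 fold change 2.84, SE 0.22, adjusted p = 8.2e-10), and the mean of CA3, 46.1 CPM, was close to that of the DG, 44.9 CPM. Wfs1 lies on the minus strand at chr5:36966104-36989205 (GRCm38, GENCODE M21). Pou3f1, a POU-domain transcription factor at chr4:124656807-124660655, showed 449, 428, 271 and 399 CPM in CA1 and 87.0, 48.6, 69.7 and 31.3 CPM in CA3. Pou3f1 was higher in CA1, by 2.68 on the log2 scale (SE 0.22, adjusted p = 2.78e-09). Mpped1, a metallophosphoesterase-domain gene, was measured at 304, 343, 213 and 402 CPM in CA1 and 84.0, 75.6, 71.8 and 64.5 CPM in CA3. Mpped1 was higher in CA1, by 2.07 on the log2 scale (SE 0.19, adjusted p = 2.35e-08). No CA3 replicate reached the level of any CA1 replicate for these 3 genes.

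Of the 12 genes on the list of CA1 pyramidal markers, 10 were called higher in CA1 and 1 higher in CA3, and the median log2 fold change was 2.06. Ndst4, a heparan sulfate sulfotransferase, stood at 59.7, 79.8, 71.6 and 51.3 CPM in CA1 and 10.3, 9.89, 21.4 and 9.77 CPM in CA3. Ndst4 was higher in CA1, by 2.31 on the log2 scale (SE 0.28, adjusted p = 1.68e-06). Fibcd1, a membrane receptor that binds acetylated groups and chondroitin sulfate, was lower in level but as well separated, at 21.8, 48.2, 32.4 and 27.0 CPM in CA1 and 1.47, 11.7, 6.43 and 3.91 CPM in CA3. Fibcd1 was higher in CA1, by 2.26 on the log2 scale (SE 0.40, adjusted p = 0.0004). The secreted matricellular protein Ccn3 (log2 fold change 2.06, SE 0.42, adjusted p = 0.00218), Spink8, a Kazal-type protease inhibitor (log2 fold change 1.38, SE 0.27, adjusted p = 0.00121), and Man1a, a mannosidase of the Golgi (log2 fold change 0.89, SE 0.20, adjusted p = 0.00606), also passed. Gpr161, a receptor of the primary cilium, passed at an adjusted p of 0.0354 in edgeR and was not called without CA1 replicate 1, 2 or 4 or CA3 replicate 1, 2 or 4, with adjusted p up to 0.172.

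The exceptions on that list were Dcn and Zbtb20. Dcn, the proteoglycan decorin, went the other way with 6.89, 3.01, 6.75 and 8.09 CPM in CA1 and 32.4, 18.9, 23.6 and 13.7 CPM in CA3 (log2 fold change -1.86, SE 0.40, adjusted p = 0.00357), and the DG mean was 33.9 CPM. Zbtb20, a repressor that marks hippocampal pyramidal and granule cells in general, was abundant and did not pass, at 3111 ± 432 CPM (SD, n = 4) in CA1 and 2968 ± 339 CPM (SD, n = 4) in CA3, with an adjusted p of 0.941 in edgeR.

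Of the 12 CA3 pyramidal markers 7 were called higher in CA3 and none higher in CA1, with a median log2 fold change of -1.79. With the replicate block 9 were called. Grik4, the KA1 subunit of kainate receptors at mossy fibre synapses, gave 12.6, 3.01, 4.05 and 8.09 CPM in CA1 and 48.6, 60.3, 61.1 and 80.1 CPM in CA3, an 8.58-fold difference (log2 fold change -3.10, SE 0.33, adjusted p = 2.86e-07). It lies at chr9:42518135-42944493, and its mean in the DG, 26.3 CPM, fell between the regions. Nectin3, an adhesion molecule of puncta adherentia, was 60.9, 79.8, 71.6 and 37.8 CPM in CA1 and 312, 284, 318 and 424 CPM in CA3. Nectin3 was higher in CA3, at -2.39 on the log2 scale (SE 0.20, adjusted p = 3.32e-09). Socs2, a suppressor of cytokine signalling, was even across the CA3 replicates, at 21.8, 30.1, 36.5 and 43.2 CPM in CA1 and 147, 127, 138 and 137 CPM in CA3. Socs2 was higher in CA3, at -2.13 on the log2 scale (SE 0.21, adjusted p = 6.36e-08). Tgfb2, a TGF-beta ligand, was 51.7, 63.3, 90.5 and 37.8 CPM in CA1 and 259, 253, 324 and 234 CPM in CA3 (log2 fold change -2.11, SE 0.20, adjusted p = 2.68e-08), and unlike Grik4 and Socs2 it was nearly as high in the DG, with a mean of 225 CPM.

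Elavl2, a neuronal RNA-binding protein, was abundant in either region and still did not overlap, with 305, 265, 382 and 181 CPM in CA1 and 604, 588, 615 and 659 CPM in CA3. Elavl2 was higher in CA3, at -1.12 on the log2 scale (SE 0.17, adjusted p = 6.38e-05). Bok, a BCL2 family member, was 10.3, 7.53, 8.10 and 10.8 CPM in CA1 and 28.0, 30.6, 27.9 and 25.4 CPM in CA3. Bok was higher in CA3, at -1.63 on the log2 scale (SE 0.32, adjusted p = 0.00145). Prss35, a serine protease-like gene, passed narrowly at an adjusted p of 0.0496 in edgeR, and was not called when any 1 replicate but CA3 replicate 2 was left out, with adjusted p up to 0.239. Homer3, a postsynaptic scaffold, had values that did not overlap, 8.04, 10.5, 9.45 and 8.09 CPM in CA1 and 19.2, 20.7, 19.3 and 17.6 CPM in CA3, with an adjusted p of 0.0695 in edgeR, of 0.0375 with the block and of 0.301 with the replicate pairs summed. Iyd, an iodotyrosine deiodinase known from CA3 maps, had 0 UMIs in all 4 CA1 replicates and 16 over CA3, at least 4.36-fold higher in CA3 against a floor of 3 counts over the group, with an adjusted p of 0.0569, of 0.0062 with the block and of 0.165 with the pairs summed. Galnt3, a glycosyltransferase, had 3 and 16 UMIs, a ratio of 4.36 with an exact 95% interval for counting error of 1.25 to 23.4, and did not pass (adjusted p = 0.239 in edgeR). Coch and Cdh24 stayed at a few CPM, with adjusted p of 0.808 and 0.861 in edgeR.

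**Figure D2:**
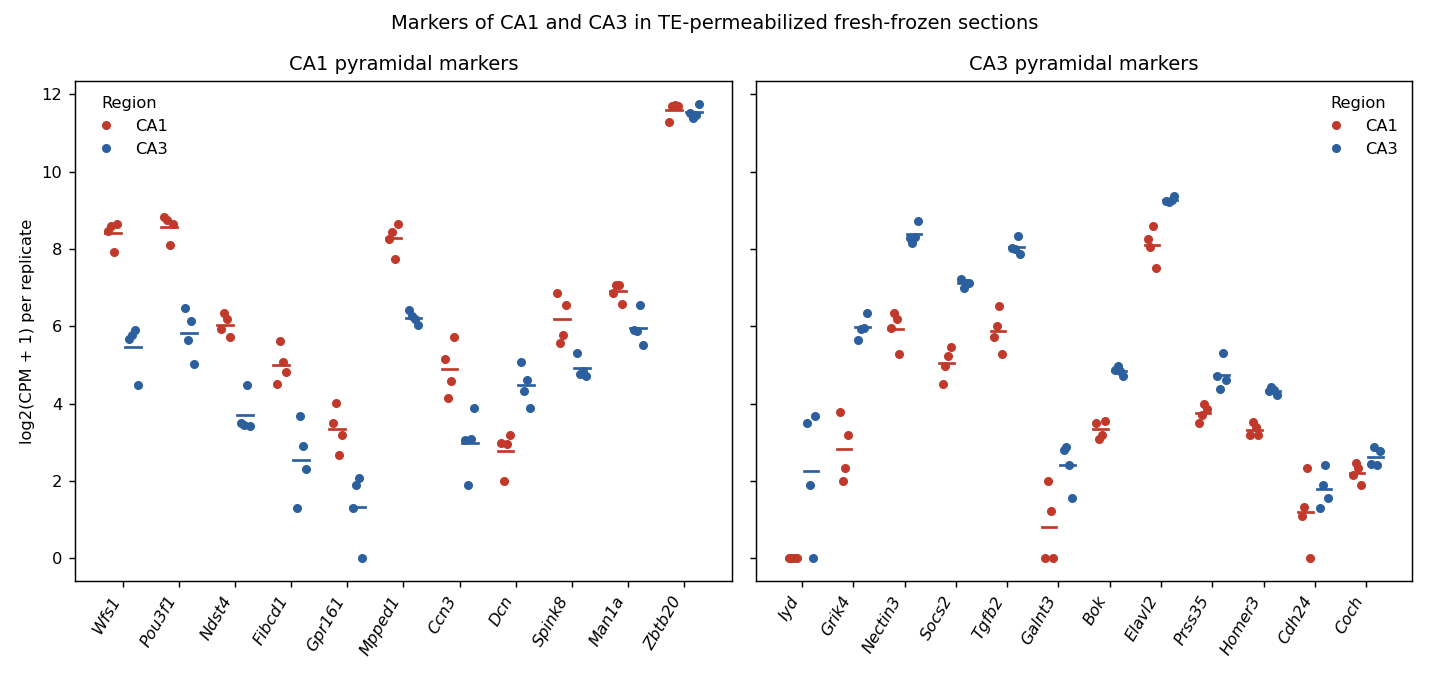
Log2(CPM + 1) of 11 CA1 markers and the 12 CA3 markers in each of the 4 CA1 and 4 CA3 replicates of the TE-permeabilized fresh-frozen sections, with a short line at each group's mean. Most CA1 markers sit higher in CA1 with Dcn and Zbtb20 as exceptions, and Grik4, Nectin3, Socs2 and Tgfb2 sit apart in CA3.

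CA2 lies between CA1 and CA3, and its markers bear on the borders of the irradiated areas. Of the 9 CA2 markers with enough UMIs, 1 (11.1%) was called, against 4.42% of all genes tested. It was Stard5, a lipid-binding protein, at 6.19 ± 2.70 CPM (SD, n = 4) in CA1 and 16.7 ± 8.83 CPM (SD, n = 4) in CA3 (log2 fold change -1.48, SE 0.43, adjusted p = 0.0448). Its values overlapped between the regions, with an exact permutation p of 0.0857, and leaving out CA1 replicate 1, 2 or 4 or CA3 replicate 1, 2 or 3 lost the call, with adjusted p up to 0.274. Rgs14, a regulator of G protein signalling that restrains plasticity in CA2, had 66.6, 33.1, 63.5 and 40.5 CPM in CA1 and 60.4, 57.6, 49.3 and 41.0 CPM in CA3 and an adjusted p of 0.989 in edgeR. Pcp4, a calmodulin regulator, had 229.9 ± 39.3 CPM (SD, n = 4) in CA1 and 263 ± 57.1 CPM (SD, n = 4) in CA3 (adjusted p = 0.701 in edgeR). Amigo2, an adhesion protein, was uneven in CA1, with 24.1, 19.6, 79.7 and 8.09 CPM in CA1 and 69.3, 34.2, 41.8 and 52.8 CPM in CA3 (adjusted p = 0.637 in edgeR). Replicate 3 of CA1 held the highest CA1 value of Amigo2, Cacng5, Sostdc1, Necab2, Ntf3, Prss23 and Pcp4. Among CA1 markers it had the lowest CA1 value of Wfs1, Pou3f1, Mpped1 and Gpr161. It was not lowest for Fibcd1, Man1a, Spink8, Ndst4 and Ccn3, and it was highest for Zbtb20 (3385 CPM). The CA1 marker list summed to 4456 CPM in that replicate, within the range of 3977 to 4862 CPM over the CA1 replicates. Zbtb20, which was not called between the regions, made up 3385 CPM of that sum. The sum thus mostly followed Zbtb20 and does not describe the other CA1 markers. Without CA1 replicate 3 Amigo2, Cacng5, an auxiliary subunit of AMPA receptors, and Sostdc1, a secreted BMP and WNT inhibitor, were called higher in CA3, at log2 fold changes of -1.34, -1.21 and -1.95 (adjusted p = 0.0171, 0.0449 and 0.0121 in edgeR). With all replicates Necab2, Cacng5, Ntf3 and Prss23 did not pass, and Sostdc1 had an adjusted p of 0.307, of 0.0373 with the block and of 0.393 with the replicate pairs summed. Map3k15, Ccdc3 and Avpr1b had fewer than 10 UMIs over the 8 replicates. Summed over the list, CA2 markers amounted to 427, 289, 598 and 305 CPM in CA1 and 410 to 530 CPM in CA3. The study names Ociad2 and Dkk3 as markers of both CA1 and CA3, in its comparison of CA1 with the DG. Neither was called between CA1 and CA3 here, and their DG means were 69.6 and 197 CPM. Ociad2 was 191 ± 44.4 CPM (SD, n = 4) in CA1 and 167 ± 10.7 CPM (SD, n = 4) in CA3 (adjusted p = 0.701 in edgeR). Dkk3 was 511 ± 70.5 CPM (SD, n = 4) in CA1 and 641 ± 116 CPM (SD, n = 4) in CA3 (adjusted p = 0.337 in edgeR).

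None of the 10 astrocyte, 10 oligodendrocyte, 9 microglia and 9 endothelial or mural markers was called, against 4.42% of all genes tested. Their median log2 fold changes were 0.09, 0.12, 0.27 and -0.02. With the block 1 microglia marker, Cx3cr1, was called higher in CA1 (adjusted p = 0.0269 in edgeR), and with the replicate pairs summed none was. Of the 3 erythrocyte markers tested 0 were called, and 1, Hbb-bs, with the block (adjusted p = 0.0289 in edgeR). The summed level of the astrocyte markers was 5554 to 7026 CPM in CA1 and 5489 to 6458 CPM in CA3, and that of the oligodendrocyte markers 6898 to 11980 CPM and 6382 to 9289 CPM. Of 10 interneuron markers 1 (10%) was called, against that same 4.42%. This was Pvalb, the parvalbumin gene of fast-spiking interneurons. It read 81.5, 57.2, 63.5 and 54.0 CPM in CA1 and 50.1, 33.3, 25.7 and 43.0 CPM in CA3 (log2 fold change 0.81, SE 0.23, adjusted p = 0.0426), and its adjusted p was up to 0.220 without CA1 replicate 1, 2, 3 or 4 or CA3 replicate 2 or 3, and up to 0.589 over all alternatives. With the block 2 interneuron markers were called, and with the pairs summed 0. Among the 9 DG markers, which summed to 224 to 316 CPM in CA1, 283 to 388 CPM in CA3 and 1658 to 2159 CPM in the DG, Lct, the lactase gene, was higher in CA1 (log2 fold change 1.59, SE 0.28, adjusted p = 0.000371) and Stxbp6, an inhibitor of SNARE assembly, higher in CA3 (log2 fold change -0.94, SE 0.27, adjusted p = 0.041). Of the 9 DG markers 22.2% were thus called, against 4.42% of all genes tested. The call of Stxbp6 was lost without any 1 replicate but CA3 replicate 3, with adjusted p up to 0.162. With the block 4 of the 9 were called higher in CA3. Prox1, the transcription factor that defines granule cells, was among them at an adjusted p of 0.00172, against 0.0626 without the block. With the replicate pairs summed no DG marker was called higher in CA3.

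The choroid plexus and the thalamus lie against the hippocampus. Of the 4 choroid plexus markers tested 1 was called and of the 5 thalamus markers 2 were, all higher in CA3. The share of all genes tested that was called higher in CA3 was 2.43%. With the block 2 choroid plexus markers were called. Ttr, the transthyretin gene of choroid plexus, had 19.5, 84.4, 56.7 and 340.0 CPM in CA1 and 715, 1070.3, 155 and 375 CPM in CA3, and the regions overlapped. edgeR called it higher in CA3 (log2 fold change -2.39, SE 0.49, adjusted p = 0.0025) and DESeq2 did not (adjusted p = 0.235). The 6 choroid plexus markers together took 37 to 356 CPM in CA1, with 2 of them at 0, and 161 to 1103 CPM in CA3. In the DG they took 61 to 2696 CPM, and the DG mean of Ttr was 1839 CPM against 579 CPM in CA3. Tcf7l2, a WNT effector expressed throughout the thalamus, was 58.6, 55.7, 63.5 and 75.6 CPM in CA1 and 127, 157, 208 and 168 CPM in CA3 (log2 fold change -1.42, SE 0.19, adjusted p = 1.19e-05), and the DG mean was 294 CPM. Prkcd, the protein kinase C delta gene, belongs to the same list and was called too, whereas Slc17a6, the glutamate transporter VGLUT2, Rora and Lef1 did not pass. The 5 thalamus markers summed to 240 to 317 CPM in CA1, 374 to 593 CPM in CA3 and 631 to 863 CPM in the DG. Whether tissue next to the hippocampus contributed to genes that were higher in CA3 was not tested.

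By the size of the difference, among called genes without overlap that averaged 20 or more UMIs in the replicates of the higher region, the leading coding genes in CA1 beside its markers were Doc2b, Kcnh7 and Pex5l. Doc2b, a calcium sensor for spontaneous transmitter release, measured 142, 137, 89.1 and 151 CPM in CA1 and 25.1, 12.6, 18.2 and 23.4 CPM in CA3. Doc2b was higher in CA1, by 2.75 on the log2 scale (SE 0.25, adjusted p = 1.22e-08). Kcnh7, an ERG-type potassium channel, measured 189, 342, 194 and 229 CPM in CA1 and 32.4, 53.1, 96.5 and 37.1 CPM in CA3. Kcnh7 was higher in CA1, by 2.07 on the log2 scale (SE 0.25, adjusted p = 1.85e-06). Pex5l, also called TRIP8b, the auxiliary subunit that sets surface levels of HCN channels in dendrites, measured 332, 309, 267 and 372 CPM in CA1 and 78.1, 79.2, 103 and 41.0 CPM in CA3. Pex5l was higher in CA1, by 2.04 on the log2 scale (SE 0.19, adjusted p = 3.49e-08). The long noncoding RNA 9130024F11Rik was also higher in CA1 (log2 fold change 2.16, SE 0.39, adjusted p = 0.000598).

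Toward CA3 the leading genes included Prkcd, at chr14:30595354-30626210, with 5.74, 4.52, 0 and 0 CPM in CA1 and 47.2, 58.5, 61.1 and 70.3 CPM in CA3 (log2 fold change -4.23, SE 0.41, adjusted p = 5.04e-08), beside the thalamus markers given above. Its DG mean was 39.1 CPM. Cd109, a GPI-anchored co-receptor that restrains TGF-beta signalling, had 3.45, 0, 6.75 and 2.70 CPM in CA1 and 60.4, 71.1, 42.9 and 70.3 CPM in CA3. Cd109 was higher in CA3, at -4.11 on the log2 scale (SE 0.39, adjusted p = 3.67e-08). Cyp26b1, the enzyme that degrades retinoic acid, had 11.5, 10.5, 20.3 and 13.5 CPM in CA1 and 108, 167, 101 and 106 CPM in CA3. Cyp26b1 was higher in CA3, at -3.12 on the log2 scale (SE 0.25, adjusted p = 2.09e-09). Npy2r, a presynaptic receptor for neuropeptide Y, had 9.19, 19.6, 23.0 and 29.7 CPM in CA1 and 179.8, 137, 136 and 176 CPM in CA3. Npy2r was higher in CA3, at -3.05 on the log2 scale (SE 0.25, adjusted p = 2.78e-09). Both were also high in the DG, with means of 111 and 94.0 CPM. Of the 3 regions CA1 had the lowest mean for both genes.

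Further genes with large differences toward CA3 had various roles. Fgf10, a fibroblast growth factor, had 5.74, 6.03, 1.35 and 2.70 CPM in CA1 and 45.7, 32.4, 38.6 and 37.1 CPM in CA3. Fgf10 was higher in CA3, at -3.17 on the log2 scale (SE 0.38, adjusted p = 1.96e-06). Smoc2, a SPARC-related calcium-binding matrix protein, had 9.19, 7.53, 6.75 and 2.70 CPM in CA1 and 67.8, 62.1, 49.3 and 58.6 CPM in CA3. Smoc2 was higher in CA3, at -3.04 on the log2 scale (SE 0.30, adjusted p = 6.4e-08). Ccbe1, a matrix protein needed for VEGFC processing, had 0 to 12.2 CPM in CA1 and 42.9 to 87.0 CPM in CA3 (log2 fold change -3.18, SE 0.37, adjusted p = 1.16e-06). Cpne9, a calcium-dependent phospholipid-binding copine (log2 fold change -3.46, SE 0.38, adjusted p = 4.99e-07), Mndal, an interferon-inducible nuclear protein (log2 fold change -4.09, SE 0.49, adjusted p = 1.72e-06), and the long noncoding RNA AI115009 (log2 fold change -3.42, SE 0.51, adjusted p = 5.81e-05) were also higher in CA3. Clmp, an adhesion molecule that controls kainate receptors, had 42.5, 37.7, 41.9 and 40.5 CPM in CA1 and 227, 196, 192 and 238 CPM in CA3. Clmp was higher in CA3, at -2.40 on the log2 scale (SE 0.19, adjusted p = 1.04e-09).

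On log2(mean CPM + 1) the DG was nearer to CA1 for 103 of the 290 genes higher in CA1, and for 152 of the 353 genes higher in CA3.

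Among receptors for fast transmission, 1 of 22 glutamate receptor genes was called higher in CA1 and 4 higher in CA3 (median log2 fold change 0.08). The shares over all genes tested were 1.99% and 2.43%. Members of this and the other lists were chosen with earlier results of these data known. A larger share in a list is therefore no test of that list. Grin2a, the NMDA receptor subunit GluN2A, was 1018, 1268, 1062 and 1201 CPM in CA1 and 707, 749, 812 and 715 CPM in CA3. Grin2a was higher in CA1, by 0.60 on the log2 scale (SE 0.14, adjusted p = 0.00924). Beside Grik4, the kainate subunit Grik2 (log2 fold change -0.83, SE 0.22, adjusted p = 0.0222) and the metabotropic receptor Grm7 (log2 fold change -0.75, SE 0.21, adjusted p = 0.031) were higher in CA3. Of 12 GABA-A receptor subunits 1 was called in each direction, against 1.99% and 2.43% of all genes tested. Gabrg3 was higher in CA1 (log2 fold change 1.08, SE 0.26, adjusted p = 0.0108) and Gabra2, the alpha2 subunit of axon initial segment synapses, higher in CA3 (log2 fold change -0.61, SE 0.15, adjusted p = 0.016). With the block 3 of these subunits were called higher in CA3. Single replicates decided 4 of these calls. Grik2 was lost without CA1 replicate 1 or 2 or CA3 replicate 2, 3 or 4 (adjusted p up to 0.111), and Grm7 without CA1 replicate 3 or 4 or CA3 replicate 1 or 4 (up to 0.116). Gabrg3 was lost without CA1 replicate 2 or 3 (up to 0.0694), and Gabra2 without CA1 replicate 3 or 4 or CA3 replicate 1 (up to 0.0845). With the replicate pairs summed only Grik4 of the genes named here was called.

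Of 42 potassium and HCN channel genes 6 were called higher in CA1 (Kcnh7 included) and 6 in CA3, against 4.42% of all genes, with a median log2 fold change of 0.15. Kcnab1, an auxiliary subunit that confers fast inactivation on Kv1 channels, had 257, 243, 185 and 256 CPM in CA1 and 102, 72.0, 89.0 and 131 CPM in CA3. Kcnab1 was higher in CA1, by 1.27 on the log2 scale (SE 0.19, adjusted p = 7.01e-05). On the CA3 side, Kcnc2, the fast delayed rectifier Kv3.2, had 148, 146, 126 and 146 CPM in CA1 and 340.5, 289, 295 and 393 CPM in CA3. Kcnc2 was higher in CA3, at -1.23 on the log2 scale (SE 0.17, adjusted p = 1.47e-05). Kcnt2, a sodium-activated channel, had 12.6, 18.1, 13.5 and 8.09 CPM in CA1 and 42.7, 39.6, 41.8 and 39.1 CPM in CA3. Kcnt2 was higher in CA3, at -1.59 on the log2 scale (SE 0.28, adjusted p = 0.000428). Further called channels, named after their values were seen, were Kcnj9 and Kcnd2 toward CA1 at log2 fold changes of 0.97 and 0.70, and Kcna2, Kcnq5, Kcnd3 and Kcnn3 toward CA3 at -0.73, -0.82, -1.13 and -1.17. Members of the Kv4 family thus lay on opposite sides, Kcnd2 in CA1 and Kcnd3 in CA3. When replicate pairs were summed, 2 channels were called in each direction.

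Calls among voltage-gated calcium channels were few and lay on either side. Of 27 calcium and sodium channel genes 1 was called higher in CA1 and 3 higher in CA3, against 1.99% and 2.43% of all genes tested. The call toward CA1 was Cacna1i, a low-threshold T-type channel, with 65.5, 114, 66.2 and 111 CPM in CA1 and 20.6, 31.5, 31.1 and 27.4 CPM in CA3. Cacna1i was higher in CA1, by 1.62 on the log2 scale (SE 0.24, adjusted p = 5.46e-05). Of the 3 higher in CA3, Cacna1c, the L-type Cav1.2, had 31.0, 37.7, 58.1 and 29.7 CPM in CA1 and 124, 121, 117 and 82.1 CPM in CA3. Cacna1c was higher in CA3, at -1.50 on the log2 scale (SE 0.21, adjusted p = 2.97e-05). The others were Cacna1a, the P/Q-type channel of presynaptic terminals (log2 fold change -0.82, SE 0.14, adjusted p = 0.000317), and Cacng2, stargazin, a trafficking subunit of AMPA receptors (log2 fold change -0.94, SE 0.17, adjusted p = 0.000626). No sodium channel gene was called. With the block 4 genes of the list were called in each direction, 2 of them sodium channel genes.

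Among 29 neuromodulator receptors tested, 3 were higher in CA1 and 1, Npy2r, in CA3, against 1.99% and 2.43% of all genes tested. The serotonin receptor Htr1a, a Gi-coupled receptor of pyramidal cells, had 76.9, 64.8, 40.5 and 78.3 CPM in CA1 and 33.9, 11.7, 26.8 and 19.5 CPM in CA3. Htr1a was higher in CA1, by 1.51 on the log2 scale (SE 0.29, adjusted p = 0.00107). Htr1b, its relative on CA1 axon terminals, had 37.9, 28.6, 21.6 and 13.5 CPM in CA1 and 5.90, 6.30, 10.7 and 3.91 CPM in CA3. Htr1b was higher in CA1, by 1.90 on the log2 scale (SE 0.37, adjusted p = 0.00156). Drd5, a D1-class dopamine receptor coupled to cAMP, had 36.7, 40.7, 33.8 and 27.0 CPM in CA1 and 11.8, 16.2, 18.2 and 9.77 CPM in CA3. Drd5 was higher in CA1, by 1.26 on the log2 scale (SE 0.29, adjusted p = 0.00642). With the block 5 of these receptors were called higher in CA1 and 3 higher in CA3. On the list of cAMP, G protein and PKC signalling, 5 of 31 genes (16.1%) were called higher in CA1 and 0 higher in CA3, against 1.99% and 2.43% of all genes tested. With the block 5 were called higher in CA1 and 2 higher in CA3. Prkcd, a protein kinase C gene kept with the thalamus markers, was higher in CA3. The 5 were the adenylyl cyclases Adcy1 (log2 fold change 0.64, SE 0.15, adjusted p = 0.00728) and Adcy2 (log2 fold change 0.95, SE 0.20, adjusted p = 0.0032), the phosphodiesterase Pde4a (log2 fold change 0.79, SE 0.21, adjusted p = 0.0208), Rgs2, a brake on Gq signalling (log2 fold change 1.06, SE 0.19, adjusted p = 0.000456), and Prkcb, the classical protein kinase C beta (log2 fold change 0.62, SE 0.16, adjusted p = 0.0241). Adcy1 was still higher in the DG, with a mean of 2207 CPM. Pde4a was lost without CA1 replicate 1, 2 or 3 or CA3 replicate 1 or 2 (adjusted p up to 0.0830) and Prkcb without CA1 replicate 2 or 4 or CA3 replicate 1 or 2 (up to 0.125). Rgs2 alone of the 5 was called with the replicate pairs summed.

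Of 29 calcium-binding and CaMK genes 3 (10.3%) were called, against 4.42% of all genes tested. These 3 were higher in CA3, also with the pairs summed. The median log2 fold change of the list was -0.07, with 13 members above 0 and 16 below. Ncald, a neuronal calcium sensor, had 98.8, 111, 146 and 91.7 CPM in CA1 and 319.8, 237, 258 and 276 CPM in CA3. Ncald was higher in CA3, at -1.28 on the log2 scale (SE 0.18, adjusted p = 1.68e-05). Camk1d, a kinase of the CaMKI family, had 449, 491, 497 and 359 CPM in CA1 and 923, 753, 805 and 920.3 CPM in CA3. Camk1d was higher in CA3, at -0.93 on the log2 scale (SE 0.15, adjusted p = 0.000159). Calb2, the calretinin gene, which marks interneurons and hilar mossy cells, had 2.30, 10.5, 4.05 and 2.70 CPM in CA1 and 33.9, 25.2, 31.1 and 19.5 CPM in CA3. Calb2 was higher in CA3, at -2.46 on the log2 scale (SE 0.41, adjusted p = 0.000235). With the block 3 genes of the list were called higher in CA1 and 5 higher in CA3.

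Of 43 transcription factors 11 were called higher in CA1 and 2 higher in CA3, against 1.99% and 2.43% of all genes tested, and the median log2 fold change was 0.22. The CA1 marker Pou3f1 is on this list too. Bcl11b, also known as CTIP2, a zinc finger factor of hippocampal neurons, was abundant and did not overlap, with 928, 1149, 986 and 1031 CPM in CA1 and 348, 390.4, 506 and 281 CPM in CA3. Bcl11b was higher in CA1, by 1.41 on the log2 scale (SE 0.16, adjusted p = 7.62e-07). Foxp1, a forkhead repressor, had 728, 901, 597 and 804 CPM in CA1 and 432, 379, 428 and 369 CPM in CA3. Foxp1 was higher in CA1, by 0.90 on the log2 scale (SE 0.16, adjusted p = 0.000331). Lmo3, a LIM-only cofactor, had 276, 229, 157 and 273 CPM in CA1 and 133, 103, 98.6 and 99.7 CPM in CA3. Lmo3 was higher in CA1, by 1.09 on the log2 scale (SE 0.19, adjusted p = 0.000357). Neurod1, a proneural factor, had 37.9, 25.6, 56.7 and 45.9 CPM in CA1 and 102, 93.5, 83.6 and 113 CPM in CA3, and a DG mean of 192 CPM. Neurod1 was higher in CA3, at -1.25 on the log2 scale (SE 0.22, adjusted p = 0.000414). Outside the naming rule, Lmo1, Pou3f3, Etv5, Etv1, Mef2c and Satb1 were higher in CA1, by 1.92, 0.81, 0.79, 0.75, 0.71 and 0.66 on the log2 scale, and Lmo4 was higher in CA3 at -0.73. The LIM-only genes therefore lay on either side. Summing the replicate pairs gave 6 and 1 calls, and the block 15 and 2.

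Immediate early genes, which neurons transcribe within minutes of activity, had a median log2 fold change of 0.51 over 19 tested. Of these, 5 were called higher in CA1 and 1 higher in CA3, against 1.99% and 2.43% of all genes tested. Egr1, a zinc finger factor induced by strong synaptic input, had 233, 200.3, 158 and 99.8 CPM in CA1 and 60.4, 71.1, 82.6 and 56.7 CPM in CA3. Egr1 was higher in CA1, by 1.35 on the log2 scale (SE 0.21, adjusted p = 7.01e-05). Egr4 had 40.2, 21.1, 44.6 and 56.7 CPM in CA1 and 16.2, 16.2, 13.9 and 15.6 CPM in CA3 (log2 fold change 1.34, SE 0.30, adjusted p = 0.00551) and Nr4a1, an orphan nuclear receptor, 58.6, 52.7, 40.5 and 40.5 CPM in CA1 and 28.0, 20.7, 24.7 and 7.82 CPM in CA3. Nr4a1 was higher in CA1, by 1.20 on the log2 scale (SE 0.27, adjusted p = 0.00638). Nr4a2 was also higher in CA1 (log2 fold change 0.78, SE 0.18, adjusted p = 0.00629), as was Arc, the activity-regulated cytoskeletal gene, which was named after its values were seen, at 152, 136, 147 and 103 CPM in CA1 and 82.5, 103, 92.2 and 46.9 CPM in CA3. Arc was higher in CA1, by 0.70 on the log2 scale (SE 0.19, adjusted p = 0.0278). Nr4a3, the third member of that receptor family, was higher in CA3 (log2 fold change -0.71, SE 0.19, adjusted p = 0.0237), but not called without CA1 replicate 2, 3 or 4 or CA3 replicate 1 or 4, with adjusted p up to 0.124. Fos was low, at 16.1, 9.04, 4.05 and 8.09 CPM in CA1 and 1.47, 6.30, 6.43 and 1.95 CPM in CA3. Summed over the list, these genes amounted to 1472 to 1739 CPM in CA1, 1120 to 1234 CPM in CA3 and 866 to 1003 CPM in the DG, with no overlap between the regions. After thinning to 370605 UMIs per replicate, the smallest total, 2 were called higher in CA1 and 1 in CA3. Egr4 and Nr4a1 then had adjusted p of 0.0664 and 0.0509 in edgeR. With the replicate pairs summed Egr1 and Nr4a1 were called. With the block 7 were called higher in CA1 and 2 in CA3.

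Axon guidance genes leaned toward CA3 by count, with 10 of 45 called higher in CA3 and 1 in CA1, against 2.43% and 1.99% of all genes tested, and a median of -0.15. Slit2, a secreted repellent, was among the 5 genes with the smallest adjusted p toward CA3. It lies at chr5:47983138-48307733 and showed 27.6, 40.7, 45.9 and 18.9 CPM in CA1 and 245, 209, 283 and 266 CPM in CA3. Slit2 was higher in CA3, at -2.87 on the log2 scale (SE 0.21, adjusted p = 4.96e-10). Its receptor Robo1 had 49.4, 42.2, 55.4 and 62.1 CPM in CA1 and 162, 126, 112 and 189.5 CPM in CA3. Robo1 was higher in CA3, at -1.51 on the log2 scale (SE 0.21, adjusted p = 2.1e-05). Nrp2, a neuropilin that binds class 3 semaphorins, had 89.6, 46.7, 67.5 and 48.6 CPM in CA1 and 199, 164, 173 and 236 CPM in CA3. Nrp2 was higher in CA3, at -1.58 on the log2 scale (SE 0.20, adjusted p = 6.8e-06). Ntng1, a netrin-G that is anchored to axons, had 5.74, 10.5, 25.7 and 10.8 CPM in CA1 and 42.7, 69.3, 57.9 and 48.9 CPM in CA3. Ntng1 was higher in CA3, at -2.07 on the log2 scale (SE 0.31, adjusted p = 6.68e-05). Unc5c, a receptor for netrin, had 96.5, 113, 139 and 99.8 CPM in CA1 and 186, 259.9, 301 and 209 CPM in CA3. Unc5c was higher in CA3, at -1.10 on the log2 scale (SE 0.18, adjusted p = 0.000138). The remaining calls, named after their values were seen, were the Eph receptors Epha3 (-1.11) and Ephb1 (-0.97), Sema5a (-0.91), Sema5b (-1.77) and Unc5d (-1.10) toward CA3, and the ephrin Efnb2 (1.42) toward CA1, all as log2 fold changes. With replicate pairs summed, 9 and 1 of them were called.

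Of 43 adhesion molecules of synapses 6 were called in each direction, against 1.99% and 2.43% of all genes tested. The median log2 fold change was -0.10. Nptxr, the membrane-bound member of the neuronal pentraxins, which cluster AMPA receptors, had 377, 348, 354 and 383 CPM in CA1 and 1338, 1189, 987 and 1491 CPM in CA3 (log2 fold change -1.79, SE 0.16, adjusted p = 8.31e-09). The secreted Nptx1 had 305, 318, 212 and 332 CPM in CA1 and 924, 689, 726 and 1024 CPM in CA3. Nptx1 was higher in CA3, at -1.55 on the log2 scale (SE 0.18, adjusted p = 8.98e-07). Their relative Nptx2 was higher in CA1 at a log2 fold change of 0.70. Pcdh8, the activity-induced protocadherin arcadlin, had 35.6, 40.7, 40.5 and 40.5 CPM in CA1 and 92.9, 122, 114 and 99.7 CPM in CA3. Pcdh8 was higher in CA3, at -1.47 on the log2 scale (SE 0.19, adjusted p = 7.38e-06). Tenm3, a teneurin that guides wiring from CA1 to the subiculum, had 146, 274, 147 and 103 CPM in CA1 and 39.8, 39.6, 69.7 and 35.2 CPM in CA3. Tenm3 was higher in CA1, by 1.85 on the log2 scale (SE 0.25, adjusted p = 1.64e-05). Cdh6, a type II cadherin, had 129, 164, 99.9 and 135 CPM in CA1 and 29.5, 47.7, 55.8 and 48.9 CPM in CA3. Cdh6 was higher in CA1, by 1.51 on the log2 scale (SE 0.21, adjusted p = 2.1e-05). Among calls outside the naming rule, Cdh9, a cadherin of mossy fibre synapses, was on the CA3 side at -2.05, and the FLRT family divided, with Flrt1 and Flrt2 higher in CA1 at 1.14 and 0.68 and Flrt3 higher in CA3 at -1.19 on the log2 scale. With the block 13 members were called higher in CA3 and 6 higher in CA1.

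Of 27 neurotrophin, growth factor and neuropeptide genes, 2 were higher in CA1 and 3 in CA3, against 1.99% and 2.43% of all genes tested. Igfbp4, a binding protein for insulin-like growth factors, had 152, 206, 193 and 186 CPM in CA1 and 56.0, 68.4, 47.2 and 48.9 CPM in CA3. Igfbp4 was higher in CA1, by 1.71 on the log2 scale (SE 0.18, adjusted p = 2.55e-07). Chgb, the granin chromogranin B of dense-core vesicles, had 463, 256, 365 and 405 CPM in CA1 and 1254, 848, 973 and 1845 CPM in CA3. Chgb was higher in CA3, at -1.75 on the log2 scale (SE 0.21, adjusted p = 1.85e-06). Bdnf, the neurotrophin of mossy fibre and CA3 neurons, had 139, 136, 128 and 97.1 CPM in CA1 and 214, 231, 222 and 233 CPM in CA3 (log2 fold change -0.84, SE 0.16, adjusted p = 0.00116), and the CA3 values were closely spaced. Fgf13, an intracellular factor that modulates sodium channels, was higher in CA3 (log2 fold change -0.88, SE 0.17, adjusted p = 0.00165), and Tac2, the neurokinin B precursor, was higher in CA1 at low counts (log2 fold change 1.72, SE 0.47, adjusted p = 0.0275), a call lost without CA1 replicate 1 or 3 or CA3 replicate 2 or 3 (adjusted p up to 0.223). Of 8 corticosteroid receptor and target genes 1 (12.5%) was called without the block, against 4.42% of all genes tested. This was Sgk1, a kinase induced by glucocorticoids, with 173, 188, 167 and 178 CPM in CA1 and 366, 358, 224 and 277 CPM in CA3. Sgk1 was higher in CA3, at -0.80 on the log2 scale (SE 0.17, adjusted p = 0.00296). Neither corticosteroid receptor gene passed, and none of 8 nuclear-retained long noncoding RNAs did. With the block Nr3c1, the glucocorticoid receptor, and Zbtb16 were called higher in CA1 (adjusted p = 0.00609 and 0.00144 in edgeR), and the long noncoding RNA Neat1 higher in CA3 (adjusted p = 0.0181). With the block 6 of the 27 growth factor and neuropeptide genes were called higher in CA1 and 3 in CA3. Bdnf, Fgf13, Tac2 and Sgk1 were not called with the replicate pairs summed.

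Of 83 cytosolic ribosomal protein genes 71 had a log2 fold change above 0 (median 0.34), and 6 (7.23%) were called, all higher in CA1, against 1.99% of all genes tested. Among them were Rpl35a (log2 fold change 1.00, SE 0.25, adjusted p = 0.013) and Rps29 (log2 fold change 0.64, SE 0.17, adjusted p = 0.0246). The summed level of the list was 8764 to 11506 CPM in CA1 and 7135 to 8477 CPM in CA3. With the block 21 of the list were called, and with replicate pairs summed 0 were. Without CA1 replicate 1 Rpl35a and Rps29 had adjusted p of 0.101 and 0.138, and both were also lost without CA1 replicate 4 or CA3 replicate 2, Rps29 in addition without CA3 replicate 3. The 89 nuclear-encoded respiratory chain genes had a median of 0.17 and 1 call (1.12%), against 4.42% of all genes tested. The call, Ndufa5 (log2 fold change 0.63, SE 0.18, adjusted p = 0.044), was lost without CA1 replicate 1 or 4 or CA3 replicate 1, 2 or 3 (adjusted p up to 0.249). With the block 4 respiratory chain genes and 4 mitochondrially encoded genes were called. Of the 15 mitochondrially encoded genes tested 1 (6.67%) was called, against the same 4.42%. It was mt-Atp8, with 0 UMIs in CA1 and 30 in CA3, at least 8.18-fold higher in CA3 against 3 counts over the group (adjusted p = 0.00234 in edgeR). Several of the others are limited by the number of UMIs.

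**Figure D3:**
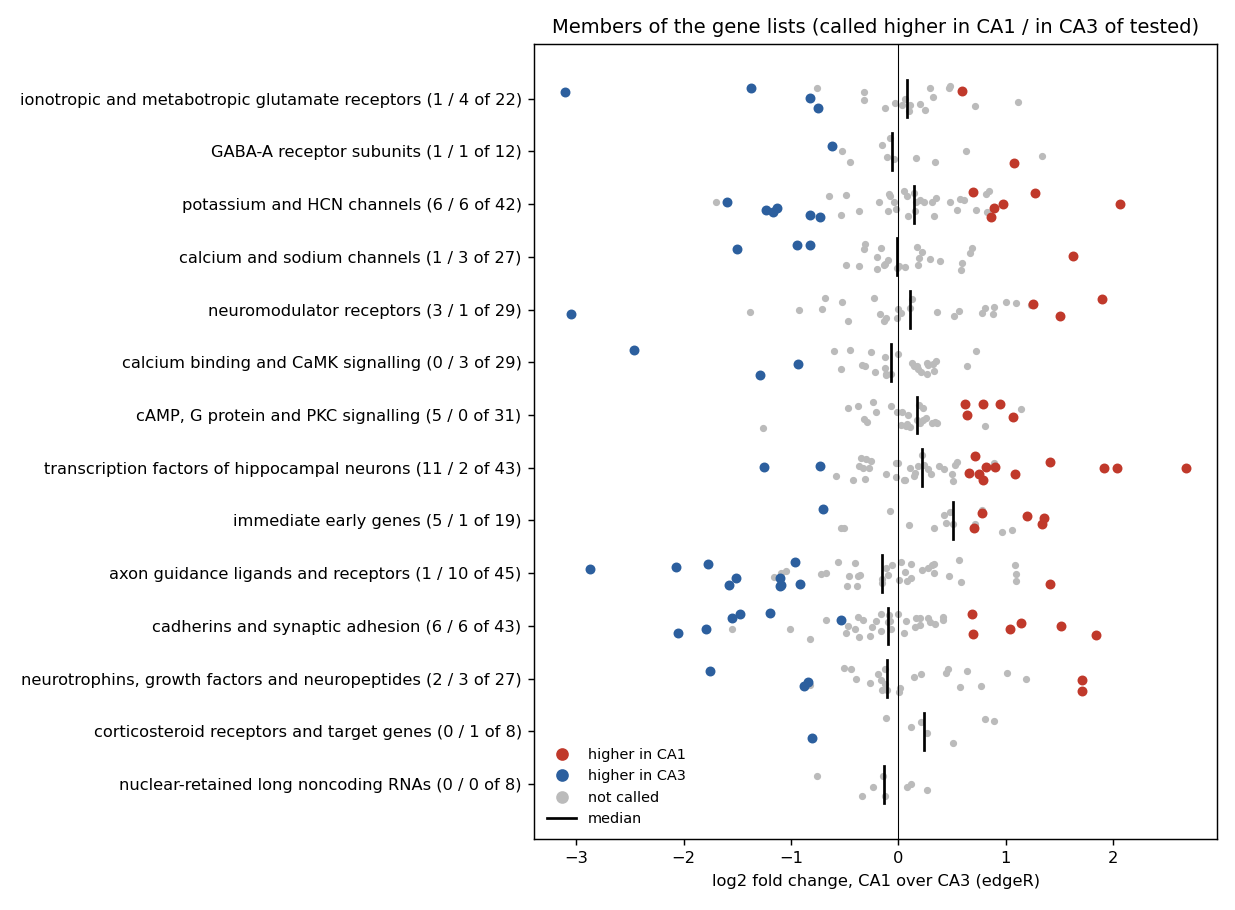
Log2 fold change, CA1 over CA3, of each tested member of 14 gene lists, 1 point per gene, with called genes in colour and a black bar at the list's median. Axon guidance genes hold 10 calls toward CA3 and 1 toward CA1, and transcription factors 11 toward CA1 and 2 toward CA3. The lists were chosen with earlier results of these data known.

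Promoter sequence was read for the genes tested from RefSeq (GRCm38.p6), in windows from 250 bases before to 50 bases after the start of transcription, which 10131 of the 14544 genes matched. On both strands, the octamer ATGCAAAT, which POU factors such as Pou3f1 bind, was in 1.47% of all genes with a window. It was in 2 of 190 (1.05%) of genes higher in CA1 and in 3 of 248 (1.21%) of genes higher in CA3. The cAMP response element TGACGTCA, which reads the same on both strands, was in 3.59%, 7 (3.68%) and 6 (2.42%). The EGR motif GCGTGGGCG was in 1.33% of all, in none of the genes higher in CA1 and in 5 (2.02%) of those higher in CA3, and the CArG box in 1.61%, 3 (1.58%) and 5 (2.02%). The shares of genes higher in CA1 or in CA3 rest on at most 7 genes each, and no difference between shares was tested. Of the 15 immediate early genes with a window, Btg2 and Dusp1 held the cAMP response element, and Egr2 and Dusp5 the CArG box. Egr2 also held the octamer, and none held the EGR motif.

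The same motif lay before genes that were higher in opposite fields, and 4 of them described above are shown for this reason, each as the 250 bases before the start of transcription, 5′ to 3′ on the gene's own strand, with the motif in capitals. Tenm3 (chr8:48674691-48674940, minus strand), higher in CA1, and Chgb (chr2:132781392-132781641, plus strand), higher in CA3, have the cAMP response element beginning 63 and 72 bases before the start. Prkcb (chr7:122288875-122289124, plus strand), higher in CA1, and Pcdh8 (chr14:79771313-79771562, minus strand), higher in CA3, have the octamer 70 and 47 bases before it, in Pcdh8 on the reverse strand. A match describes these letters and not a bound site.
Tenm3: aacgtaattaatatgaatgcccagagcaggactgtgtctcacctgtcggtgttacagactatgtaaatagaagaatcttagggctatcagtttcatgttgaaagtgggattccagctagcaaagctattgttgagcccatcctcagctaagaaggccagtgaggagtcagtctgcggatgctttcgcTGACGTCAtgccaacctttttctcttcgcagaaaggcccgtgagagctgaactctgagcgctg
Chgb: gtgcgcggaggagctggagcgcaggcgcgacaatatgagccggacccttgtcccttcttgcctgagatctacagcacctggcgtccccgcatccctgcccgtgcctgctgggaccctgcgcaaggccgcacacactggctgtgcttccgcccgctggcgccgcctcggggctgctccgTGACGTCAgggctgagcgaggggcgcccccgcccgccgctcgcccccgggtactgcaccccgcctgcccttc
Prkcb: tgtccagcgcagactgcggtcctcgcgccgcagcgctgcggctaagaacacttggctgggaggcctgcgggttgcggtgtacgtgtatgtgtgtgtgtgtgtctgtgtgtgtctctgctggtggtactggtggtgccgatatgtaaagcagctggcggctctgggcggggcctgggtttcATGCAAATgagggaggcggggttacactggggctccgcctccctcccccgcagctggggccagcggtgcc
Pcdh8: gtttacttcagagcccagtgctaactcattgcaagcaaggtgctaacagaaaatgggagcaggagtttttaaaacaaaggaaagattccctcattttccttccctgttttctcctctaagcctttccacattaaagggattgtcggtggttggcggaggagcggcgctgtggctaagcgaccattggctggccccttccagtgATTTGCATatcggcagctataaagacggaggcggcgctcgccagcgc

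The same regions were then read in other replicates. In HCl-permeabilized fresh-frozen sections, 1415 of 15637 genes (9.05%) were called between CA1 and CA3. Of the 643 genes called after TE, 639 were tested there and 388 were called in both, which is 60.7% of the TE calls and 28.3% of the 1372 HCl calls tested in TE. The direction was the same for 382 and opposite for 6. The sign of the log2 fold change was shared by 588 of the 639 (92.0%), against 57.8% of all genes tested in both. In PFA-fixed frozen sections with TE, which held 52800 to 180873 UMIs per replicate, 599 of 8286 genes (7.23%) were called. Of the TE calls 547 were tested there and 275 called in both, 50.3% of the TE calls and 46.2% of the 595 calls in fixed sections, 271 in the same direction and 4 opposite. The sign was shared by 481 of 547 (87.9%), against 60.6% of all genes.

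The leading markers were called in all 3 experiments. The log2 fold change of Wfs1 was 2.84 here, 2.74 after HCl and 4.63 after PFA, that of Grik4 -3.10, -2.72 and -3.87, that of Slit2 -2.87, -2.62 and -3.35, and that of Npy2r -3.05, -3.15 and -2.75. Of the thalamus markers, 5 of 5 were called higher in CA3 after HCl and 4 of 5 after PFA. Of the 10 oligodendrocyte markers, 9 were called higher in CA1 after PFA, 1 after HCl and none here. Fgf10 was at -3.17 here, -2.91 after HCl and -0.13 after PFA, where it did not pass (adjusted p = 0.961 in edgeR). These values stand side by side, and the test of a difference is the interaction that follows.

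The interaction of region with experiment was called for 89 of 17250 genes (0.516%) against HCl and for 53 of 14904 (0.356%) against PFA. Among the TE calls, 19 genes had a called interaction with HCl and 22 with PFA. Elavl2 differed less here than after PFA, by 1.65 on the log2 scale (adjusted p = 0.000806 in edgeR), and Mpped1 likewise, with an interaction of -2.08 (adjusted p = 0.0334 in edgeR). The CA2 markers Rgs14 against HCl (-1.57, adjusted p = 0.0196) and Pcp4 against PFA (1.30, adjusted p = 0.0112) also had called interactions. Ttr changed sides, with log2 fold changes of -2.39 here, 1.99 after HCl and -6.50 after PFA. Each replicate was also thinned to the smallest total of the 16 in the fit, 127253 UMIs with HCl and 52800 with PFA. After this thinning 16 and 7 interactions were called, and with the block 460 and 151.

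**Figure D4:**
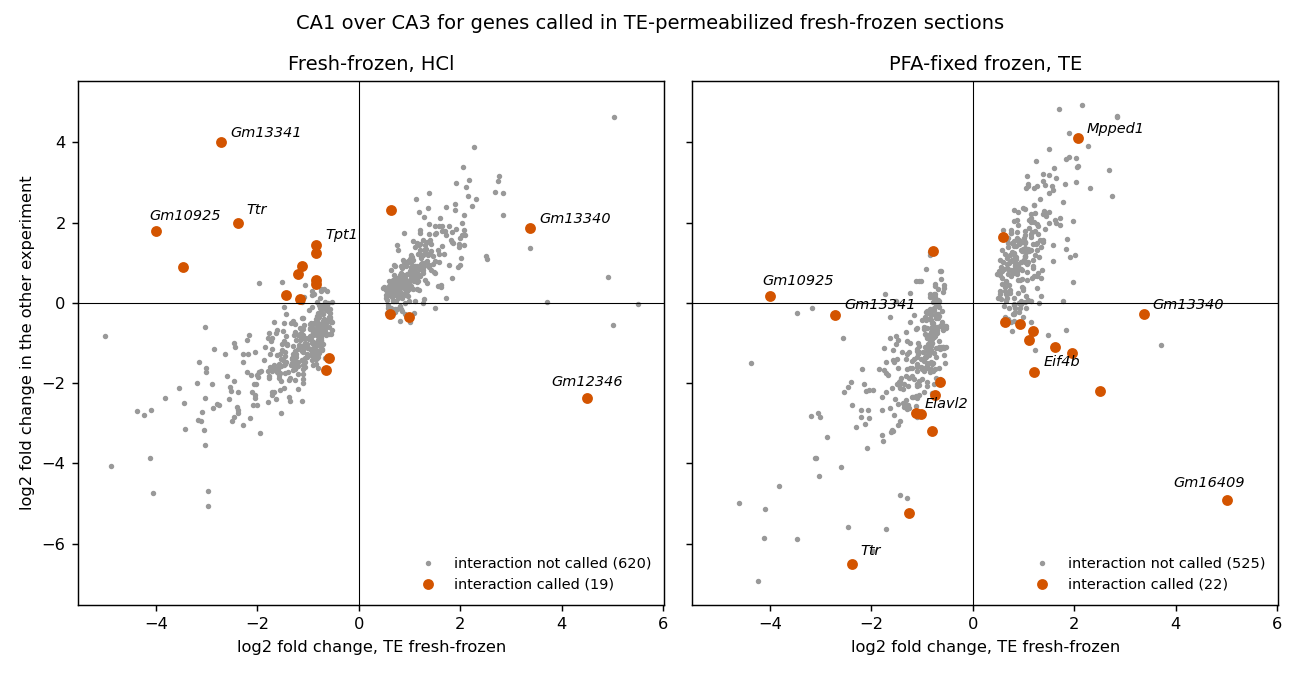
Log2 fold change, CA1 over CA3, in HCl-permeabilized fresh-frozen sections (left) and in PFA-fixed frozen sections (right) against that in TE-permeabilized fresh-frozen sections, for TE calls tested in both. Most points lie in the quadrants of equal sign, and the 19 and 22 genes with a called interaction are coloured.

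Some of the largest differences concerned pseudogenes. Gm13340 and Gm13341, neighbours at chr2:22588103-22589647 and chr2:22587291-22587962, and Gm10925 at chr1:24613974-24614651 are annotated as unprocessed pseudogenes and are known nuclear copies of mitochondrial DNA, so that reads may have been split between them and the mitochondrial genes. Gm13340 had 2069, 2089, 1741 and 2326 CPM in CA1 and 174, 164, 213 and 240.3 CPM in CA3. Gm13340 was higher in CA1, by 3.37 on the log2 scale (SE 0.17, adjusted p = 1.05e-13). Its neighbour Gm13341 went the other way, with 373, 226, 354 and 286 CPM in CA1 and 2439, 1349, 1863 and 2368 CPM in CA3 (log2 fold change -2.71, SE 0.19, adjusted p = 2.59e-10), and Gm10925 had 50.5, 39.2, 51.3 and 51.3 CPM in CA1 and 964, 536, 771 and 760.1 CPM in CA3 (log2 fold change -3.999, SE 0.21, adjusted p = 1.05e-13). After HCl all 3 were higher in CA1, at log2 fold changes of 1.86, 4.00 and 1.80, and after PFA they were at -0.28, -0.29 and 0.16. The interaction of Gm13341 was -6.67 against HCl and -2.39 against PFA, and that of Gm10925 -5.76 and -4.13, all called in edgeR. Gm28661, beside Gm10925 at chr1:24614885-24615565, was higher in CA1 (log2 fold change 0.63, SE 0.17, adjusted p = 0.0227), but not without CA1 replicate 1 or 4 or CA3 replicate 2 (adjusted p up to 0.133).

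Tpt1-ps3, a processed copy of the translationally controlled tumour protein gene Tpt1, went apart from its parent. It had 59.7, 21.1, 47.3 and 43.2 CPM in CA1 and 0, 0, 1.07 and 0 CPM in CA3, 117 UMIs against 1, a ratio of 143 with an exact 95% counting interval of 25.2 to 5698 (adjusted p = 2.22e-08 in edgeR), and it was at 0 in the DG. Over HCl-treated sections it had 1 UMI in CA1 and 0 in CA3. Tpt1 itself was higher in CA3, at 40.2, 36.2, 29.7 and 45.9 CPM in CA1 and 61.9, 63.9, 66.5 and 74.3 CPM in CA3 (log2 fold change -0.84, SE 0.21, adjusted p = 0.0172), and higher in CA1 after HCl, at a log2 fold change of 1.45. Without CA1 replicate 2 or 3 or CA3 replicate 4 the call here was lost, with adjusted p up to 0.0892. Gm12346, another pseudogene, had 90.7, 31.6, 16.2 and 37.8 CPM in CA1 and 0, 0.899, 5.36 and 0 CPM in CA3 (log2 fold change 4.51, SE 0.60, adjusted p = 1.17e-05) and -2.38 after HCl. Eif4b, a translation initiation factor, was higher in CA1 here (log2 fold change 1.21, SE 0.22, adjusted p = 0.000666) and at -1.71 after PFA. Gm16409 had 14 UMIs in CA1 and 0 in CA3, at least 5.71-fold higher in CA1 against 3 counts over the group, a call lost without CA1 replicate 4 or CA3 replicate 2 or 3 (adjusted p up to 0.0805), while after PFA it had 0 in CA1 and 14 in CA3. Each region and experiment is 1 library, and the part of the library in these values was not tested.

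**Figure D5:**
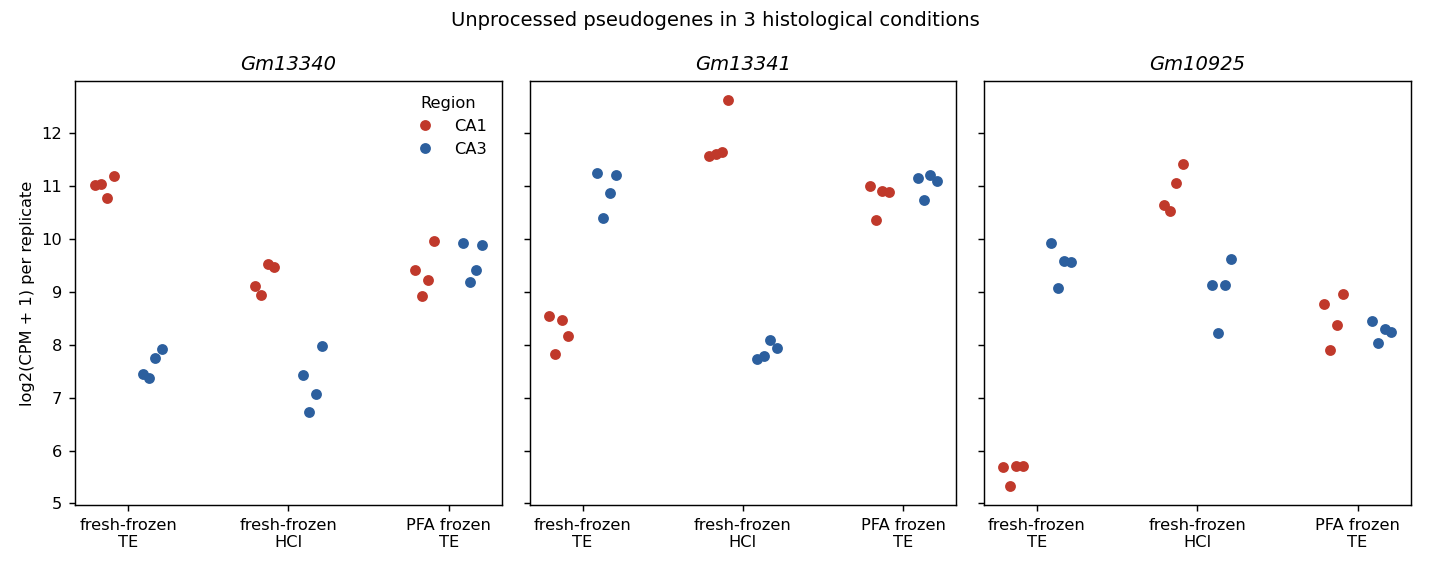
Log2(CPM + 1) of Gm13340, Gm13341 and Gm10925 in each of the 4 CA1 and 4 CA3 replicates of 3 experiments, TE fresh-frozen, HCl fresh-frozen and PFA frozen. After TE the replicates of a region lie close together and the regions far apart, and the order of the regions differs between experiments.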

How the data were processed

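PIC libraries of CA1 and CA3 from fresh-frozen, TE-permeabilized sections were compared. The authors used UMI-tools 1.0.0 to read the barcodes and the 6-base UMIs, aligned reads to GRCm38 with HISAT2 2.1.0, assigned them with featureCounts 1.6.4 and deposited whole UMI counts per gene and barcode, without normalization. The annotation release is not given in the sources used here. A table of barcodes was not used. Here counts were fitted with edgeR 4.0.16 (R 4.3.3, TMM, genes with at least 10 UMIs over the fitted replicates), region as the only term, and p-values were adjusted by Benjamini-Hochberg over all genes tested. The other experiments were fitted in the same way, and interactions on 16 replicates. CPM were counts scaled by each replicate's total. DESeq2 1.42.0 and, under Python 3.11.15, scipy 1.17.1, pandas 2.3.3, matplotlib 3.10.9 and numpy 2.4.6 were also used. Positions came from GENCODE M21, which held 32515 of the genes.

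Across 9904 genes, deviations from the region mean of same-numbered CA1 and CA3 replicates correlated at 0.335, 0.240, 0.338 and 0.180, each over 0.1. The replicate number was used as a block in alternative fits, whereas the main fit held region only. Of the different-numbered pairs, 1 with 4 and 2 with 3 correlated at 0.176 to 0.250 and the others at -0.331 to -0.170, so the deviations also fit 2 sets, replicates 1 and 4 and replicates 2 and 3. These correlations cannot tell pairing by number from 2 such sets. Blocked values are printed where they change a call of a named gene or move a list's count by over 1.5 times. The lists and members were chosen with earlier results of these data known. Named genes were all members of the CA1, CA3 and CA2 lists, Ociad2 and Dkk3, the 12 largest called differences per direction with at least 20 UMIs per replicate and no overlap, the 5 smallest adjusted p per direction, up to 5 called members of each other list and 5 called genes per interaction. The alternatives were DESeq2, other scalings, other filters, DG in the fit, the block, thinning, a correction for UMI saturation and leaving out each replicate. A block of replicates 1 and 4 against 2 and 3, and the sums of those pairs, were added after seeing the data. Intervals and floors cover counting error only. Single results for some members of the lists are not reported here, and counts over lists include them.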

Additional observations from a re-analysis of the deposited data

Results flagged for a closer look

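In groups of 4 replicates, 1 value stood apart from the other 3 by Dixon's criterion in 16 of the 242 groups tested, where chance gives about 1 in 20. That rate does not hold for groups with 1 UMI against 0 in the other replicates, which meet the criterion by themselves. Such groups were flagged for Map3k15, Ccdc3, Avpr1b and Tpt1-ps3. In CA3, replicate 3 was high for Ndst4 (21.4 CPM, the next value being 10.3), Gm12346 (5.36 against 0.899), Tenm3 (69.7 against 39.8) and Tpt1-ps3 (1.07 against 0). Replicate 2 of CA3 was high for Cyp26b1 (167 against 108 CPM) and Ccdc3 (0.899 against 0). Replicate 1 of CA3 was high for Lmo3 (133 against 103 CPM) and low for Grik2 (47.2 against 86.8). Replicate 4 of CA3 was low for Cacna1c (82.1 against 117 CPM) and held the only UMIs of Map3k15 (1.95 against 0). In CA1, replicate 1 was low for Zbtb20 (2466 against 3295 CPM) and for Pcdh8 (35.6 against 40.5). Replicate 2 of CA1 was low for Gm10925 (39.2 against 50.5 CPM) and high for Nr4a2 (249 against 189). Replicate 3 of CA1 was low for Kcnc2 (126 against 146 CPM) and held the only UMIs of Avpr1b in CA1 (1.35 against 0).

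The effect of region differed between TE- and HCl-permeabilized fresh-frozen sections, by edgeR's interaction test on the log2 scale, for 9 of the named genes. The interactions were -1.57 for Rgs14 (adjusted p = 0.0196), 6.90 for Gm12346 (adjusted p = 0.000659), 1.54 for Gm13340 (adjusted p = 0.000659), -5.76 for Gm10925 (adjusted p = 3.98e-18) and -6.67 for Gm13341 (adjusted p = 1.66e-21). They were -4.37 for Ttr (adjusted p = 0.0037), -2.25 for Tpt1 (adjusted p = 2.2e-05), -1.65 for Gm28661 (adjusted p = 4.68e-05) and 0.91 for Rps15 (adjusted p = 0.0421).

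Against PFA-fixed frozen sections the interaction was called for 10 named genes. It was -2.08 for Mpped1 (adjusted p = 0.0334), 1.65 for Elavl2 (adjusted p = 0.000806) and 1.30 for Pcp4 (adjusted p = 0.0112). It was 3.67 for Gm13340 (adjusted p = 8.84e-28), -4.13 for Gm10925 (adjusted p = 6.42e-25), -2.39 for Gm13341 (adjusted p = 3.7e-16) and 1.13 for Gm28661 (adjusted p = 0.0211). Ttr gave 4.28 (adjusted p = 0.00258) and Eif4b 2.94 (adjusted p = 2.24e-06). The fitted value of Gm16409, 10.99 (adjusted p = 7.01e-05), rests on groups at 0 UMIs and is no measure of size. In each interaction 1 library stands for a region in an experiment.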

How the results depend on the processing

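The 643 calls (290 toward CA1 and 353 toward CA3) came to 1227 (574 and 653) with the replicate block, 1092 (513 and 579) with a block of replicates 1 and 4 against 2 and 3, and 233 (100 and 133) with those pairs summed, a fit with 2 samples a region. Leaving out 1 replicate gave 469 to 579 calls, 198 to 271 toward CA1 and 251 to 309 toward CA3. The other settings stayed within 1.5 times. DESeq2 gave 527 and thinning to the smallest total 479. The 89 interactions with HCl became 16 after thinning to 127253 UMIs per replicate, a lower depth than in the thinned main fit. They became 460 with the block and 59 (without CA1 replicate 1) to 81 with 1 replicate left out. The 53 with PFA became 7 after thinning to 52800 UMIs, 151 with the block and 44 to 73 with 1 replicate left out. The cause of these shifts was not tested, except that summing leaves fewer samples. Of 105 called named genes, 35 were not called with pairs summed, 12 after thinning and 8 in DESeq2, and the block changed none of these calls. The block also called Homer3, Iyd and Sostdc1. Genes near 0 changed sign without passing. Zbtb20 was at -0.045 with the saturation correction and -0.020 to 0.16 with 1 replicate left out. Rgs14 was at 0.066 thinned, 0.060 thinned with the block, 0.020 with pairs summed and -0.18 to 0.15 with 1 replicate left out. Necab2 was at -0.030 thinned, -0.052 thinned with the block and -0.51 to 0.22 with 1 left out. Ntf3 was at -0.079 in DESeq2, -0.022 with the block, -1.04 thinned, -1.05 thinned with the block and -0.67 to 0.37 with 1 left out, and Prss23 at -0.32 to 0.47 with 1 left out. Genes under 10 UMIs over the 8 replicates could not be compared at this depth.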
